A study of Homo sapiens with 9 samples.

Results

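The data described here are those of 185 expressed antisense long noncoding RNAs in HMEC-1, a line of human dermal microvascular endothelial cells, with or without trimethylamine-N-oxide (TMAO), a metabolite made from dietary choline and carnitine with the help of gut bacteria. A row of the counts table was taken as an antisense RNA when its symbol ended in -AS, with or without a number, and as expressed when its mean over the 9 libraries was at least 20 estimated counts. Of 29740 rows in the table, 686 carried such a symbol, 178 of these were at 0 in every library, and 185 reached the mean count. The RNAs were thus chosen by their mean count, and their levels are described and not tested.

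The 3 groups had 3 libraries each, and their labels differ in TMAO and in hours, with no hours given for CTRL. The untreated cells are CTRL, and the treated cells received 50 µM TMAO for 24H or for 48H. All RNA came from 1 cell line, and treatment was done in medium low in serum. The study states with its results that untreated cells of the 24H and 48H time-points were pooled as CTRL. The hours in culture of each CTRL library are therefore unknown, and hours and TMAO cannot be fully told apart in the comparisons with CTRL. The study's methods speak of independent experiments in general and do not say which libraries came from separate cultures, so p-values measure the spread between these libraries, which may be technical in part. The study asked which RNAs respond early and which late, and each antisense RNA is set here beside its partner, the gene named before the hyphen.

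Antisense RNAs are transcribed from the strand opposite to another gene. Many start close to the partner's own start and run the other way from a shared promoter, while others begin inside or beyond the partner and overlap its exons. Known members act in several ways, among them the recruitment of chromatin proteins, the binding of microRNAs and interference with transcription of the partner, and for most no function is known.

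The libraries held between 25205756 and 36927373 counts. Ribosomal RNA took 30.7% of the counts in TMAO 24H replicate 1 and between 0.968% and 6.73% in the other 8 libraries, so that library stood apart. In TMAO 48H replicate 3, the epithelial keratin KRT5 was at 125 normalised counts against 763 to 1630.2 elsewhere, and KRT14, EPCAM and CDH1 were also lowest there. For the comparisons at 48H, the number of antisense RNAs that passed without either library is given below. The antisense RNAs together took 0.180% to 0.196% of the counts outside ribosomal RNA, with no group apart from the others. CTRL replicate 3 was the highest of the 9 libraries for 45 of the RNAs and TMAO 48H replicate 1 the lowest for 54.

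The labelled cell type was checked against its markers. All 12 endothelial markers were detected in every library, led by the cadherin CDH5 with a mean of 19658 normalised counts, that is, counts scaled to a library of 30416647 after TMM normalisation. At 48H, 7 of the 12 were lower than in CTRL at an adjusted p under 0.05 (edgeR) and none was higher, and their summed level was 95229 to 96114 in CTRL replicates 1 and 2, 84524 in CTRL replicate 3 and 75212 to 82719 at 48H. Of 7 fibroblast markers, DCN and LUM were at or near 0, whereas COL1A1 was the most abundant and the list's sum went from 29181 to 34025 in CTRL to 18733 to 20461 at 48H. Of the 5 tested, 2 passed at 48H, both lower, COL1A1 (log2 difference -0.67) and COL1A2 (-1.08). COL3A1, PDGFRA and PDGFRB did not pass. All 6 epithelial markers were detected, KRT18 highest, with sums of 23237 to 25403 in CTRL, 21941 to 23306 at 24H and 19120 to 21594 at 48H, where all libraries lay below the others; KRT18 was the member that passed, with a log2 difference of -0.24 at 48H (adjusted p = 0.0131 in edgeR). Of 5 leukocyte markers only CD14 reached a mean of 10, and CD3E was at 0 in all libraries. The part of these shifts in the antisense results was not tested, and in bulk RNA fewer cells of a type and less RNA per cell cannot be told apart.

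Few antisense RNAs were abundant. The mean raw count ran from 20.1 to 8862 with a median of 84.8, and the 6 highest RNAs, namely FGD5-AS1, FAM211A-AS1, PCNA-AS1, OIP5-AS1, TP73-AS1 and THAP9-AS1, took 45.0% of all antisense counts. Just inside the threshold were NR2F2-AS1 with 20.1 raw counts on average, USP46-AS1 with 21.1 and HOXA-AS3 with 21.9, and just outside it were SRP14-AS1 with 19.9, PTPRG-AS1 with 19.7 and RBM26-AS1 with 19.4. Most antisense RNAs had few counts, since 101 had a mean under 100 normalised counts while the median over the 14740 genes tested was 746.

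**Figure D1:**
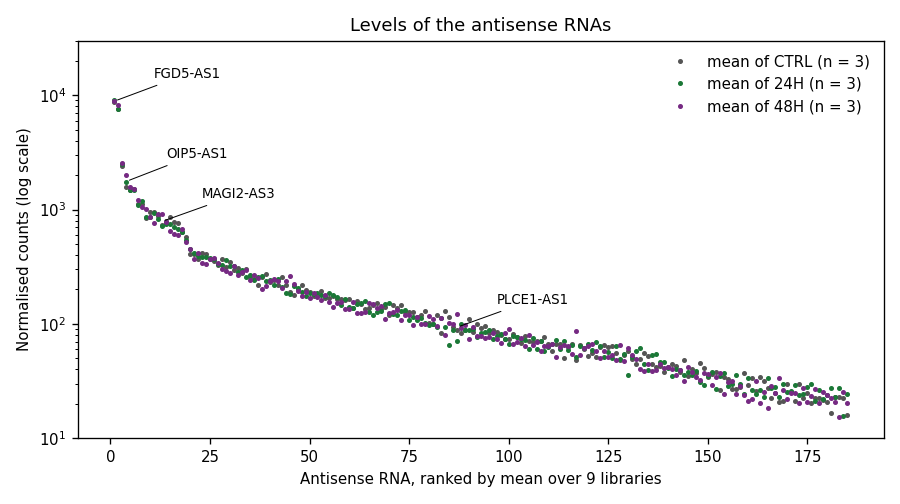
Levels of the 185 antisense RNAs. The horizontal axis ranks the RNAs by their mean over 9 libraries and the vertical axis gives normalised counts on a log scale; each point is the mean of the 3 libraries of a group. A steep head of a few RNAs, led by FGD5-AS1 near 8863, is followed by a long tail, and the 3 groups lie on top of each other at nearly every rank.

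FGD5-AS1 had the highest mean count of the antisense RNAs in every group. It is named after FGD5, a gene used mostly by endothelial cells. CTRL libraries held 8589.9, 8536 and 9046 normalised counts of FGD5-AS1, 24H libraries 9202, 8979 and 8857, and 48H libraries 8888, 8929 and 8743. All groups overlapped, and the log2 difference between 48H and CTRL was 0.021 (SE 0.039). FGD5 itself had 7827 to 9205 counts over the 9 libraries, and FGD5-AS1 made up 50.0% ± 3.11 (SD, n = 3) of the counts of the pair in CTRL. Levels were also set per kilobase of exon on a CPM scale (counts divided by the library size after TMM normalisation and rescaled). Among the 179 RNAs with an exonic length, HIF1A-AS2 ranked first with 68.9 CPM, ahead of FGD5-AS1 with 56.8, AGAP2-AS1 with 19.3 and SMARCA5-AS1 with 15.1. FAM211A-AS1 and PCNA-AS1, the next in mean count after FGD5-AS1, had no matched length and could not be placed in this order. HIF1A-AS2 lies antisense to the end of the hypoxia factor gene HIF1A, and reads from both strands of a shared stretch cannot be told apart where counting does not use the strand, which the sources used here do not state.

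RefSeq (GRCh38.p14) now lists 175 of the 185 as long noncoding or antisense RNA. A further 3 are listed as transcribed pseudogenes (TP73-AS1, PSMD5-AS1 and ZNRD1-AS1) and 7 under a protein-coding gene, among them TOPORS-AS1, NCBP2-AS2 and RPA3-AS1, which encode small proteins under newer names. HNRNPU-AS1 and TNRC6C-AS1 are synonyms of the protein-coding genes HNRNPU and TMC6 in that release, so what their counts measure is uncertain, and FAM211A-AS1 now carries the name of a snoRNA host gene, SNHG29. In GENCODE 29, 157 of the RNAs were found by name and 22 through a RefSeq synonym, and 6 were not matched. An opposite-strand start within 1000 bases of a partner start was found for 112 RNAs, called head-to-head here, another 61 overlapped the partner with starts farther apart, 2 lay elsewhere and 4 are named after a HOX cluster and have no partner row. Of the 175 RNAs that could be compared with a partner, 141 overlapped it.

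After 24H of TMAO no antisense RNA passed the test. Of 185 tested, 0 were called (adjusted p under 0.05 in edgeR and at least a 1.4-fold change) beside 0.0475% of all genes, and 0 passed at any fold change beside 0.095%. At an unadjusted p under 0.05, 5 were higher and 5 lower, that is 2.7% each way beside 2.77% and 4.47% of all genes. DESeq2 called 0 as well, beside 0.037% of all 29740 rows, which were not filtered by expression in that fit. The smallest p belonged to H1FX-AS1, with a log2 difference of -0.31 (SE 0.099) and an adjusted p of 0.519. All 3 libraries at 24H lay above all 3 CTRL libraries for 10 RNAs and below them for 14, which is 5.41% and 7.57% beside 6.73% and 7.52% of all genes. The median log2 difference of the antisense RNAs was -0.0074 beside -0.0004 for all genes.

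After 48H of TMAO, 7 antisense RNAs differed from CTRL, all by less than 1.4-fold. OIP5-AS1, MAGI2-AS3 and MBNL1-AS1 rose, and PAX8-AS1, AGAP2-AS1, HHIP-AS1 and HNRNPU-AS1 fell (adjusted p under 0.05 in edgeR). The 3 that rose were 1.62% of the 185, beside 5.13% of all genes, and the 4 that fell were 2.16%, beside 5.29%; in both directions together 3.78% stood beside 10.4%. With the 1.4-fold threshold 0 antisense RNAs were called, beside 1.8% of all genes (0.882% higher and 0.916% lower). DESeq2 called 1, CTBP1-AS (0.541%, beside 0.763%). The last share is of all 29740 rows, without an expression filter and with rows at 0, so it is not comparable with 1.8%. At an unadjusted p under 0.05, 8 were higher (4.32%, beside 13.2% of all genes) and 19 lower (10.3%, beside 12.6%). All 48H libraries lay above all CTRL libraries for 14 RNAs (7.57%, beside 14.7% of all genes) and below them for 23 (12.4%, beside 13%). The median log2 difference was -0.075 beside 0.0040 for all genes, and 105 of the 185 were on the lower side. Without TMAO 48H replicate 3, 10 passed at any fold change (5.41%, beside 10.7% of all genes in that fit) and 4 of them were called (2.16%, beside 2.27%), CTBP1-AS, HNRNPU-AS1 and HOXA-AS2 lower and DOCK9-AS2 higher, and MBNL1-AS1 and HHIP-AS1 then no longer passed. Without TMAO 24H replicate 1, which enters the common estimate of the spread, 7 passed (3.78%, beside 8.53% of all genes in that fit), with TMPO-AS1 in place of HHIP-AS1. CTBP1-AS had 158, 102 and 132 counts in CTRL, 98.6, 86.2 and 95.8 at 24H and 55.9, 73.1 and 112 at 48H, with replicate 3 inside the range of CTRL, and its log2 difference over all libraries was -0.70 (SE 0.22, adjusted p = 0.0632).

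Between 48H and 24H, 6 antisense RNAs differed in the direct test. MAGI2-AS3, PLCE1-AS1, MBNL1-AS1 and OIP5-AS1 were higher at 48H, and CACTIN-AS1 and AGAP2-AS1 were lower (adjusted p under 0.05 in edgeR). MBNL1-AS1 and PLCE1-AS1 were called, both higher, so 1.08% of the antisense RNAs stood beside 1.7% of all genes (0.862% higher and 0.841% lower). At any fold change the 4 that were higher made 2.16%, beside 3.77% of all genes, the 2 that were lower 1.08%, beside 3.76%, and all 6 made 3.24%, beside 7.52%. At an unadjusted p under 0.05, 11 were higher (5.95%, beside 11.6%) and 17 lower (9.19%, beside 10.5%), and the groups did not overlap for 10 higher (5.41%, beside 14.7%) and 19 lower RNAs (10.3%, beside 12.9%). The 2 comparisons at 48H use the same 48H libraries and are therefore not independent of each other. Without TMAO 24H replicate 1, the library rich in ribosomal RNA, or without TMAO 24H replicate 2, 2 of the 6 passed, MAGI2-AS3 and PLCE1-AS1, and without TMAO 24H replicate 3 also 2, MAGI2-AS3 and MBNL1-AS1. The share of all genes that passed was 4.38%, 4.66% and 3.75% in these fits, beside 7.52% with all libraries. With ribosomal RNA genes left out all 6 passed. Without TMAO 24H replicate 1 the log2 differences of those that no longer passed were 0.49 for MBNL1-AS1, 0.20 for OIP5-AS1, -0.27 for AGAP2-AS1 and -0.47 for CACTIN-AS1. Without TMAO 48H replicate 3, 5 passed (2.7%, beside 7.06% of all genes in that fit), and 1.62% were called beside 1.72%. Of the 5, MAGI2-AS3, OIP5-AS1 and PLCE1-AS1 were among the 6 and MORF4L2-AS1 and ST7-AS1 were not.

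**Figure D2:**
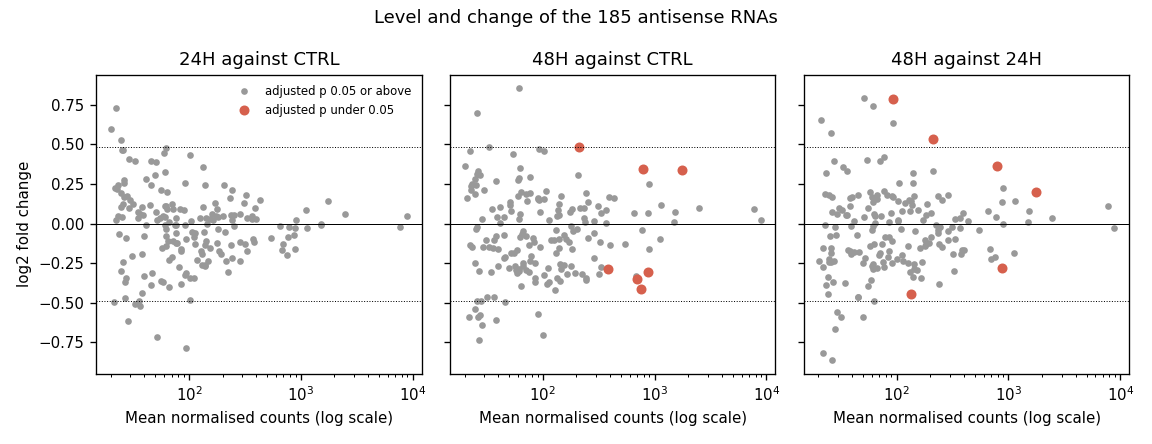
Level and change of the 185 antisense RNAs in the 3 comparisons. The horizontal axis is the mean normalised count over 9 libraries on a log scale, the vertical axis the log2 fold change, dotted lines mark a 1.4-fold change, and red points have an adjusted p under 0.05 (0, 7 and 6 RNAs from left to right). The widest scatter lies under 100 counts, where PLCE1-AS1 is the only red point.

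The standard errors were larger in classes of lower counts. The median standard error of the log2 difference at 48H was 0.18 over the antisense RNAs and 0.073 over all genes. The 101 RNAs with a mean under 100 normalised counts had a median standard error of 0.25, and 1 of them, PLCE1-AS1, passed in any comparison. Of the 76 RNAs between 100 and 1000 counts, with a median standard error of 0.12, 7 passed, and of the 8 above 1000, with 0.059, 1 passed. These shares of 0.99%, 9.21% and 12.5% stood beside 3.46%, 11.5% and 17.9% of all tested genes in the same count classes. Differences as large as 0.85 for ADPGK-AS1 (SE 0.58) and -0.74 for MLLT4-AS1 (SE 0.29), the widest in each direction at 48H, did not pass. The libraries of ADPGK-AS1 were widely spread, with 72.0, 48.8 and 23.2 counts in CTRL, 5.60, 65.3 and 82.4 at 24H and 67.5, 126 and 65.6 at 48H.

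OIP5-AS1 rose at 48H with the smallest adjusted p of all antisense RNAs. It is a conserved long noncoding RNA, known in zebrafish as cyrano, that binds a microRNA, and its partner OIP5 helps to load the centromeric histone. Its counts were 1606, 1516 and 1589 in CTRL, 1748, 1798 and 1649 at 24H and 2043, 2052 and 1863 at 48H. The 3 groups did not overlap and stood in the order of treatment time. The rise over CTRL was 0.34 on the log2 scale at 48H (SE 0.052, adjusted p = 0.00142 in edgeR), with 0.14 at 24H (SE 0.052, adjusted p = 0.572) and 0.20 between 48H and 24H (SE 0.052, adjusted p = 0.034). OIP5 stayed between 628 and 706 counts in all libraries, with a log2 difference of 0.026 at 48H (SE 0.063, adjusted p = 0.844). As a share of counts, which takes no account of length, OIP5-AS1 took 70.2% ± 1.29 (SD, n = 3) of the counts of the pair in CTRL and 74.6% ± 1.33 (SD, n = 3) at 48H, a difference with an exact two-sided permutation p of 0.1, the smallest that 3 against 3 can give.

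The window around the start of OIP5-AS1 in RefSeq (GRCh38.p14, chr15:41283740-41284039, plus strand, 250 bases before the start and 50 after) is shown because this RNA passed with the smallest adjusted p. Capitals mark matches to CCAAT and to the GC box GGGCGG, searched on both strands.
OIP5-AS1: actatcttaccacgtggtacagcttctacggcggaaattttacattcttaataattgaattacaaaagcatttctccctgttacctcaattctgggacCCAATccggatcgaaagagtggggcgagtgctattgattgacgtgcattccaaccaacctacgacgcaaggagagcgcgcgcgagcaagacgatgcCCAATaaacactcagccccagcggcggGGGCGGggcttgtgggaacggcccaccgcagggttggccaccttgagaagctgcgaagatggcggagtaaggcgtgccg

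MAGI2-AS3 rose at 48H. MAGI2, its partner, is a scaffold protein of cell junctions. The antisense RNA had 730.1, 694 and 753 counts in CTRL and 659, 779 and 709.9 at 24H, and 892, 989 and 885 at 48H. Every 48H library lay above every other library, and CTRL and 24H overlapped. The log2 difference was 0.35 against CTRL (SE 0.071, adjusted p = 0.00871 in edgeR) and 0.36 against 24H (SE 0.071, adjusted p = 0.00678). MAGI2 was scarce, with 21.1 to 28.1 counts, so that the antisense RNA held 96.8% of the counts of the pair in CTRL. The nearest starts of MAGI2-AS3 and MAGI2 lie 9 bases apart in GENCODE 29, and the RefSeq starts used for the windows lie 293 bases apart.

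MBNL1-AS1 was also higher at 48H than in both other groups. MBNL1 is a muscleblind splicing regulator. CTRL held 187, 211 and 169 counts of the antisense RNA, 24H 173, 172 and 201 and 48H 234, 239.5 and 319. All 48H libraries were above the rest, and replicate 3 was well above the other two. The log2 difference was 0.48 against CTRL (SE 0.13, adjusted p = 0.0386 in edgeR) and 0.53 against 24H (SE 0.13, adjusted p = 0.0287). Without TMAO 48H replicate 3 these were 0.32 (adjusted p = 0.117) and 0.38 (adjusted p = 0.0903). MBNL1 was at 9481 to 9913 counts in the 9 libraries and a log2 difference of 0.0031 at 48H (SE 0.037, adjusted p = 0.971).

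PLCE1-AS1 had the largest difference between the treated groups among the RNAs that passed. Its partner PLCE1 is a phospholipase C that responds to Ras proteins. The counts were 75.0, 96.6 and 91.7 in CTRL, 85.1, 63.5 and 63.6 at 24H and 125, 111 and 130.0 at 48H. The 48H libraries lay above all others, while CTRL and 24H overlapped with 2 of the 24H libraries lowest of all. It was 1.72-fold higher at 48H than at 24H (log2 0.79, SE 0.16, adjusted p = 0.00953 in edgeR), whereas the rise over CTRL of 0.47 did not pass (SE 0.16, adjusted p = 0.0785). PLCE1 had 244, 234 and 234 counts in CTRL and 214, 246 and 299 at 48H, which overlap. PLCE1-AS1 took 27.0% ± 3.06 (SD, n = 3) of the counts of the pair in CTRL, 21.4% ± 3.31 at 24H and 32.7% ± 3.53 at 48H. Between 48H and 24H the exact permutation p was 0.1, the smallest possible. The start window of PLCE1-AS1 (GRCh38.p14, chr10:94287021-94287320, minus strand, from RefSeq) is shown because it is unlike that of OIP5-AS1: it held 31.0% G and C and 2 CG pairs, against 54.3% and 23 for OIP5-AS1, with 1 CCAAT in capitals.
PLCE1-AS1: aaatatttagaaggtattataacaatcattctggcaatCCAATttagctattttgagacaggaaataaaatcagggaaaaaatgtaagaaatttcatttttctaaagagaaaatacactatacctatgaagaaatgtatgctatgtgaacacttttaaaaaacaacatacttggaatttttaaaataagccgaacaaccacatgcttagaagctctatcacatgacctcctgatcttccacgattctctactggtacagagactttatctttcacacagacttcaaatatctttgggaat

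Among the RNAs that fell, PAX8-AS1 had the smallest adjusted p. PAX8 is a paired box transcription factor of thyroid and kidney. PAX8-AS1 was at 764, 758 and 796 counts in CTRL, 746, 708 and 667 at 24H and 540.1, 629.7 and 649 at 48H. No library overlapped between the groups, and the order went down with treatment time. It fell by 0.35 on the log2 scale at 48H (SE 0.074, adjusted p = 0.00997 in edgeR), and the differences of -0.13 at 24H (adjusted p = 0.78) and -0.22 between 48H and 24H (adjusted p = 0.0916) did not pass. PAX8 had only 49.8 to 80.7 counts and a log2 difference of 0.15 (SE 0.19).

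AGAP2-AS1 was lower at 48H than in CTRL and at 24H. AGAP2 is a GTPase-activating protein that also binds PI3-kinase. CTRL libraries had 849, 982 and 1004 counts of AGAP2-AS1, those at 24H 950.0, 944 and 889.9 and those at 48H 815, 706 and 773. All 48H libraries were below the rest, and CTRL and 24H overlapped. It fell by 0.31 on the log2 scale against CTRL (SE 0.073, adjusted p = 0.0182 in edgeR) and by 0.28 against 24H (SE 0.073, adjusted p = 0.0339). AGAP2 itself had 95.4, 112 and 126 counts in CTRL and 108, 135 and 146 at 48H, and its difference of 0.23 had the opposite sign and did not pass (SE 0.15, adjusted p = 0.378). AGAP2-AS1 held 89.5% ± 0.573 (SD, n = 3) of the counts of the pair in CTRL and 85.5% ± 2.44 (SD, n = 3) at 48H, with an exact permutation p of 0.1.

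HNRNPU-AS1 and CACTIN-AS1 were lower as well, in different comparisons. HNRNPU is an RNA-binding protein of the nuclear matrix, and CACTIN is a nuclear protein with roles in splicing and in restraint of NF-κB signalling. HNRNPU-AS1 had 904, 728 and 956 counts in CTRL, 797, 749 and 709.9 at 24H and 526, 654 and 765 at 48H, and CTRL and 48H overlapped. It fell by 0.41 at 48H on the log2 scale (SE 0.12, adjusted p = 0.0472 in edgeR), close to the threshold. CACTIN-AS1 had 137, 147 and 136 counts in CTRL, 146, 144 and 162 at 24H and 109, 112 and 110.5 at 48H, and all 48H libraries were the lowest. It fell by 0.45 between 24H and 48H (SE 0.11, adjusted p = 0.028), while the difference of -0.34 from CTRL did not pass (adjusted p = 0.0691). Its partner CACTIN fell in both comparisons, by 0.18 against CTRL (adjusted p = 0.0151) and by 0.17 against 24H (adjusted p = 0.0238).

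How far these results rested on single libraries was read from 6 fits per comparison, each without 1 library of the groups compared. Against CTRL at 48H, OIP5-AS1 and PAX8-AS1 passed in 6 of 6 and MAGI2-AS3 in 5 of 6, whereas AGAP2-AS1 passed in 3, HNRNPU-AS1 in 2 and MBNL1-AS1 and HHIP-AS1 in 1. Between 48H and 24H, MAGI2-AS3 passed in 6 of 6, PLCE1-AS1 in 5, MBNL1-AS1 in 3, OIP5-AS1 and AGAP2-AS1 in 1 and CACTIN-AS1 in 0. None of these differences changed direction in these fits.

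**Figure D3:**
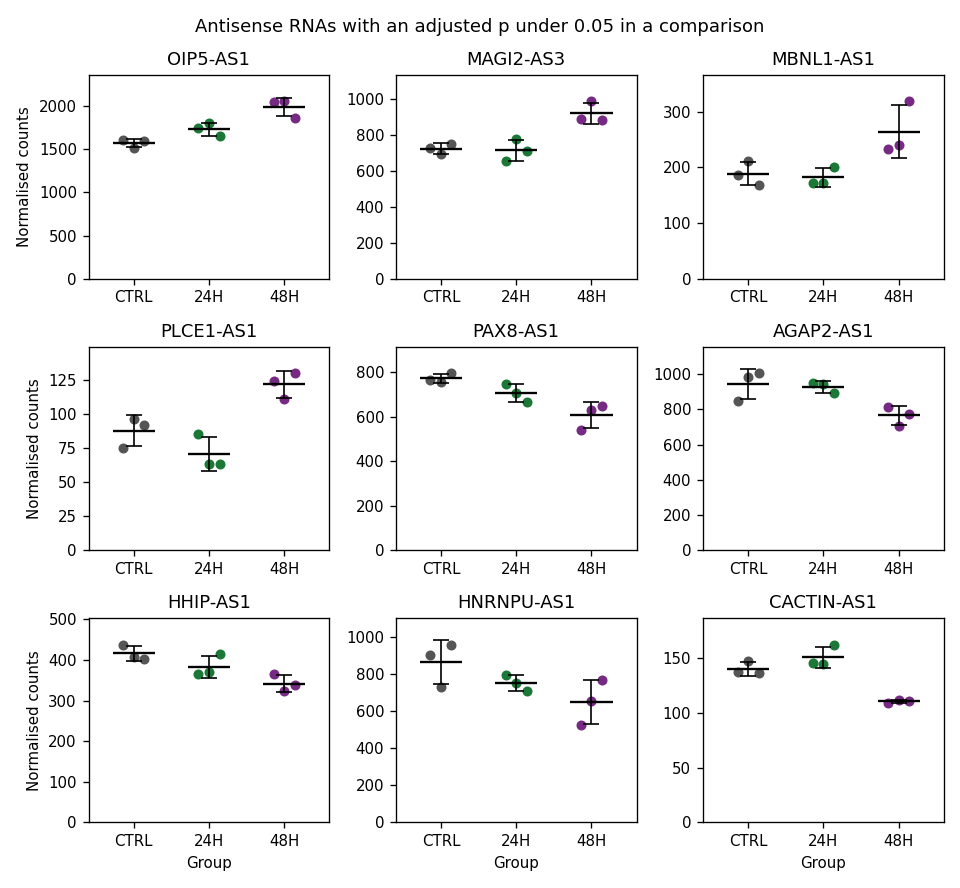
Normalised counts of the 9 antisense RNAs with an adjusted p under 0.05 in a comparison. Each point is a library of CTRL, TMAO 24H or TMAO 48H, the line is the mean and the bars are 1 SD (n = 3). OIP5-AS1, MAGI2-AS3, MBNL1-AS1 and PLCE1-AS1 are highest at 48H, the other 5 are lowest at 48H, and of the 9 HNRNPU-AS1 is the RNA whose 48H and CTRL points overlap.

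A larger share of the partners passed than of the antisense RNAs, with smaller errors (a median standard error of 0.061 at 48H beside 0.18), and the difference between the shares was not tested. Of 177 partner genes tested, 24 passed at any fold change at 48H (8 higher and 16 lower), which is 13.6% beside 10.4% of all genes, and 3 were called, HLA-F higher and HHIP and ASB16 lower, which is 1.69% beside 1.8%. Between 48H and 24H 19 passed, which is 10.7% beside 7.52% of all genes, and the same 3 genes were called, which is 1.69% beside 1.7%. With 1 library left out, HHIP and HLA-F passed in 6 of 6 fits in both comparisons, and ASB16 in 6 of 6 against CTRL but in 2 of 6 against 24H (highest adjusted p = 0.0983 in edgeR, without TMAO 24H replicate 3; 0.0825 without TMAO 24H replicate 2, 0.0785 without TMAO 48H replicate 1 and 0.0730 without TMAO 48H replicate 2). With the replicate block its adjusted p against 24H was 0.0558. At 24H 0 partners passed, beside 0.095% of all genes; at an unadjusted p under 0.05, 4 were higher and 8 lower (2.26% and 4.52%, beside 2.77% and 4.47%). For 179 antisense RNAs with a tested partner, antisense RNA and partner had the same sign in 100 pairs at 24H, 102 at 48H (57.0%) and 99 between 48H and 24H. At 48H these were 62 of 112 head-to-head pairs and 34 of 59 overlapping pairs. Since the strand setting of the counting is not given, counts of the 141 RNAs that overlap their partner may hold reads of the partner, and what part this has in the signs and in the shares of the pairs was not tested. HHIP-AS1 with HHIP was the only pair of which both genes passed at 48H against CTRL, and CACTIN-AS1 with CACTIN the only one between 48H and 24H.

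**Figure D4:**
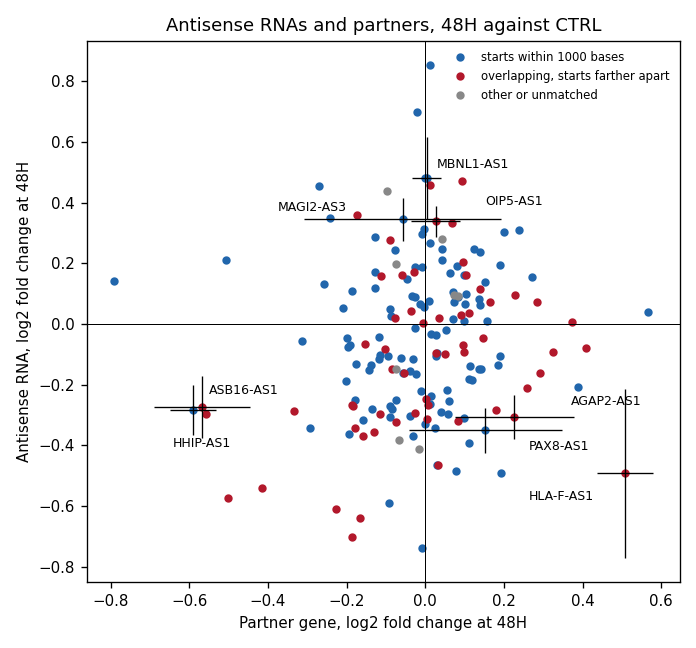
Log2 fold change at 48H against CTRL of each antisense RNA (vertical axis) and of its partner (horizontal axis), coloured by how the starts lie. Bars on the 8 named RNAs are 1 SE; of the 179 pairs, 102 have the same sign. The points of MBNL1-AS1, OIP5-AS1 and MAGI2-AS3 lie above a partner difference near 0, and HHIP-AS1 and ASB16-AS1 lie in the lower left.

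HHIP and its antisense RNA were both lower at 48H. HHIP encodes the hedgehog-interacting protein, which binds and restrains hedgehog ligands. The counts of HHIP were 2715, 2668 and 2404 in CTRL, 2708, 2435 and 2739 at 24H and 1677, 1692 and 1801 at 48H. HHIP-AS1 had 437, 408 and 403 in CTRL, 365, 371 and 414 at 24H and 364, 323 and 338 at 48H. For both genes all 48H libraries were below all others, and CTRL and 24H overlapped. HHIP fell by 0.59 on the log2 scale (SE 0.058, adjusted p = 7.14e-05 in edgeR) and HHIP-AS1 by 0.28 (SE 0.081, adjusted p = 0.0428). HHIP-AS1 took 13.8% ± 0.545 (SD, n = 3) of the counts of the pair in CTRL, 12.8% ± 0.751 at 24H and 16.6% ± 1.11 at 48H, where all 3 libraries were the highest (exact permutation p = 0.1 against CTRL, the smallest possible). In the direct test of 48H against 24H, HHIP-AS1 did not pass, with a log2 difference of -0.17 (adjusted p = 0.254).

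The starts of the pair lie on opposite strands, 137 bases apart in RefSeq, while the nearest starts in GENCODE 29 are 34 bases apart. The window around the HHIP start (RefSeq, GRCh38.p14, chr4:144645906-144646205, plus strand) is shown because both genes that start in it passed at 48H. Capitals mark the stretch from the HHIP-AS1 start to the HHIP start. The window is 72.7% G and C, with 36 CG pairs and 3 GC boxes.
HHIP: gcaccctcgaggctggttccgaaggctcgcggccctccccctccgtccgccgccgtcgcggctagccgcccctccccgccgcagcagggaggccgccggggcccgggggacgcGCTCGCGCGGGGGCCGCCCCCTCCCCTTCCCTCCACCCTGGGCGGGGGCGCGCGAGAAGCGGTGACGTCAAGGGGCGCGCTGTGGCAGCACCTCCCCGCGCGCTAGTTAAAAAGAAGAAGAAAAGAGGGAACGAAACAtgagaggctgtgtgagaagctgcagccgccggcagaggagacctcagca

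ASB16 and HLA-F were called without a passing change of their antisense RNAs. ASB16 is a SOCS box protein with ankyrin repeats, and HLA-F is a nonclassical class I histocompatibility antigen. ASB16 had 173, 152 and 159 counts in CTRL and 95.5, 112 and 119.7 at 48H. ASB16-AS1 had 366, 356 and 379.8 in CTRL and 256, 319.7 and 336 at 48H. Both were lower in all 48H libraries than in CTRL; ASB16 fell by 0.57 (SE 0.12, adjusted p = 0.0108 in edgeR), and ASB16-AS1 differed by -0.27 (SE 0.10, adjusted p = 0.111). HLA-F had 349, 358 and 379 counts in CTRL, 342, 354 and 327 at 24H and 527, 501 and 517 at 48H. HLA-F-AS1 had 23.4, 30.9 and 34.3 in CTRL, 38.1, 34.5 and 27.8 at 24H and 23.3, 14.97 and 25.3 at 48H, with CTRL and 48H overlapping and 48H below 24H. HLA-F rose by 0.51 against CTRL (SE 0.071, adjusted p = 0.000844), and HLA-F-AS1 differed by -0.49 (SE 0.28, adjusted p = 0.291), so the signs were opposite and the antisense change is not resolved at these counts.

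**Figure D5:**
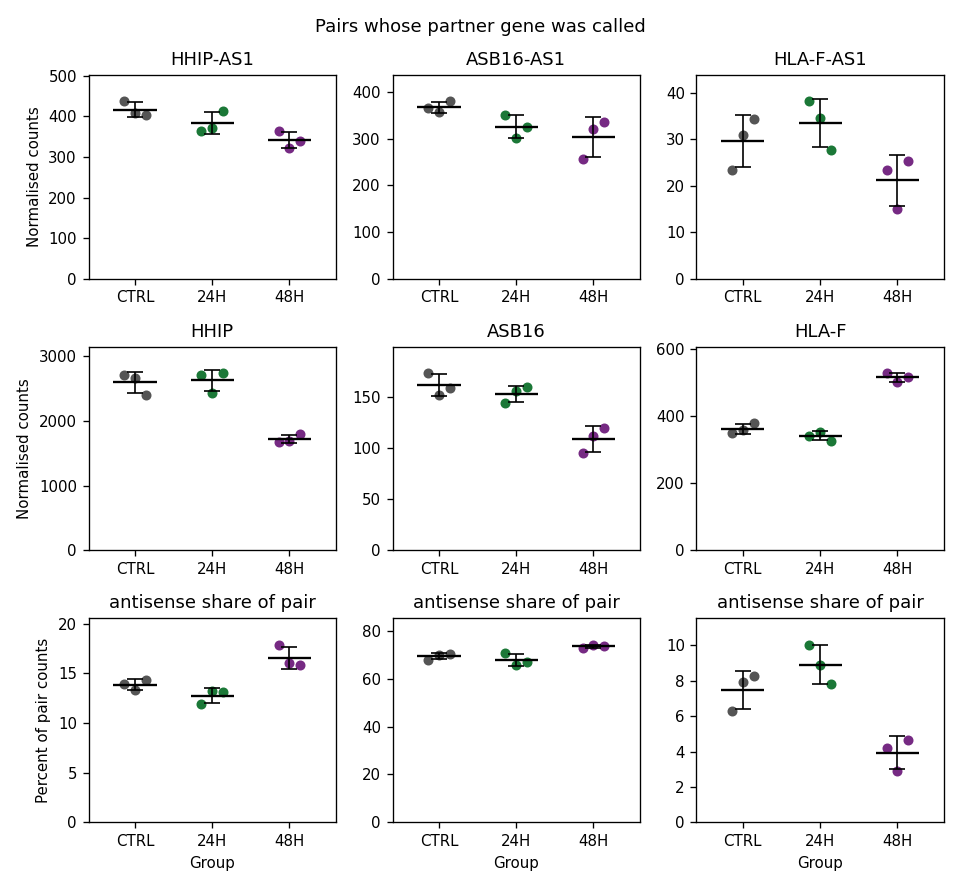
The 3 pairs whose partner gene was called. The upper and middle rows give normalised counts of the antisense RNA and of its partner, and the bottom row the percent of the counts of the pair that fall on the antisense RNA; points are libraries, lines means and bars 1 SD (n = 3). HHIP and HHIP-AS1 are both lowest at 48H, whereas HLA-F is highest and HLA-F-AS1 lowest there on average.

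Per kilobase of exon, antisense RNAs were usually the smaller gene of the pair. Over 173 pairs with both lengths the median antisense level was 16.5% of the partner level in CPM per kilobase, and the antisense RNA was above its partner in 30 pairs. As a share of the counts of the pair, without regard to length, the median was 7.06%, from 0.0858% to 96.9% over 179 pairs. At 48H the median log2 difference was -0.039 for the 112 head-to-head RNAs, of which 2 passed higher and 2 lower, and -0.096 for the 61 overlapping RNAs, of which 1 passed higher and 1 lower. Of all genes tested, 5.13% passed higher and 5.29% lower.

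TMPO-AS1, PCNA-AS1, MCM3AP-AS1 and CDKN2B-AS1 did not pass at 48H. TMPO-AS1, named after a protein of the nuclear lamina, had 829, 818 and 879.6 counts in CTRL and 988, 1081 and 934 at 48H, all above CTRL, and its difference of 0.25 missed the threshold (SE 0.09, adjusted p = 0.097 in edgeR). PCNA-AS1, beside the replication clamp gene, had a log2 difference of 0.097 (SE 0.062), MCM3AP-AS1 0.16 (SE 0.21) and CDKN2B-AS1, also called ANRIL and beside a gene for an inhibitor of cell cycle kinases, 0.073 (SE 0.16). The last 2 changed sign when 1 library was left out.

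Several of the RNAs lie in the HOX clusters, which hold transcription factor genes of the body plan. The log2 difference between 48H and CTRL for HOXA-AS2 was -0.42 (SE 0.17), HOXD-AS2 -0.58 (SE 0.27) and HOXA-AS3 -0.59 (SE 0.30), of which none passed; HOXA-AS2 was called when TMAO 48H replicate 3 was left out. HOXA-AS3 had 20.4, 21.9 and 27.2 counts in CTRL and 16.3, 15.9 and 13.8 at 48H, without overlap but close to the count threshold. HOXD-AS1, also called HAGLR, had 794, 829 and 755 counts in CTRL and 646, 768 and 899 at 48H, which overlap, and differed by -0.04 (SE 0.097). HOXA11-AS differed by -0.19 (SE 0.17) and HOXA10-AS by 0.21 (SE 0.23).

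HIF1A-AS2, LOXL1-AS1 and VIM-AS1 did not pass at 48H either. HIF1A-AS2 had 1086, 1134 and 1134 counts in CTRL and 1185, 1026 and 923 at 48H, LOXL1-AS1, beside an enzyme that crosslinks elastin, 258, 211 and 266 and 265, 250.1 and 291, and both overlapped. VIM-AS1, beside the gene for the filament protein vimentin, had 45.4, 32.6 and 117 counts at 48H, so replicate 3 set its mean; the difference from CTRL was 0.35 (SE 0.43) with that library and -0.38 without it. VIM itself fell by 0.24 at 48H (SE 0.062, adjusted p = 0.0247 in edgeR). ZEB1-AS1, named after a repressor of epithelial genes, and MAPKAPK5-AS1, named after a kinase of the stress pathways, did not pass either, with -0.095 (SE 0.13) and 0.17 (SE 0.08). GATA6-AS1, an antisense RNA known from endothelial cells, averaged 2.78 raw counts and GAS6-AS1 12.6, so neither was among the 185.

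The start windows of the antisense RNAs were rich in G and C. The 7 RNAs listed under a protein-coding gene were left out here. RefSeq held windows of 300 bases for 138 of the other 178 RNAs, 176 windows in all. Their median was 66.7% G and C and 25.5 CG pairs, beside 58.7% and 14 over 35116 windows of all genes. A GC box (GGGCGG, either strand) was found in 56.8% of the antisense windows and 45.0% of all windows, CCAAT in 28.98% and 34.6%, and TATAAA in 5.68% and 11.5%. For the AP-1 site TGANTCA the shares were 3.98% and 7.71%. Such matches describe the letters of the windows and were not tested against expression.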

How the data were processed

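RNA from HMEC-1 was sequenced in 9 libraries. Reads were processed by the authors with an nf-core pipeline and Trim Galore is among the tools of the submitters' processing notes; the authors deposited estimated counts per gene symbol without normalisation, and the strand setting, genome build and annotation are not given in the sources used here. These estimated counts, as deposited, were made whole by rounding. Genes were filtered with filterByExpr (14740 kept, all 185 antisense RNAs among them), TMM factors were computed, and all 9 libraries were fitted with the quasi-likelihood test of edgeR 4.0.16 in R 4.3.3, with Benjamini-Hochberg adjustment over all tested genes. Calls needed an adjusted p under 0.05 and at least a 1.4-fold change. Each SE of a log2 difference was derived as its absolute value divided by the square root of the test's F statistic. DESeq2 1.42.0 was an alternative, as were other factors, filters, thresholds and library sets. An exact permutation test of 3 against 3 libraries cannot go below 0.1.

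Groups and replicate numbers came from the labels. Replicates of a group differed by more than sampling noise in every pair. The antisense RNAs and the lists were chosen with earlier results of these data known. Genes named are those called, those with an adjusted p under 0.05, the 6 most abundant, those whose partner was called, a list of antisense RNAs known from vessels or proliferation, and the 3 on either side of the count threshold; ADPGK-AS1, MLLT4-AS1, H1FX-AS1, SMARCA5-AS1, HOXA-AS2, HOXD-AS2, HOXD-AS1, HOXA10-AS, and RNAs named for an alternative or an annotation were chosen after their values were seen. Positions and lengths came from GENCODE 29, and start windows and biotypes from RefSeq (GRCh38.p14). The procedure was tested on simulated data.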

Additional observations from a re-analysis of the deposited data

Results flagged for a closer look

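For 6 antisense RNAs the level differed between 48H and 24H in the direct test of the treated groups (edgeR, adjusted p under 0.05). These made 3.24% of the 185 RNAs, beside 7.52% of all genes. Each of them had all of its 48H libraries on one side of all 24H libraries. The log2 differences were 0.79 for PLCE1-AS1, 0.53 for MBNL1-AS1, 0.36 for MAGI2-AS3 and 0.20 for OIP5-AS1, higher at 48H, and -0.45 for CACTIN-AS1 and -0.28 for AGAP2-AS1, lower at 48H. The test compares the treated groups alone, since CTRL is not divided by time-point, and hours in culture and hours of TMAO cannot be told apart in it. With any 1 of the 24H replicates left out, 2 of the 6 passed: PLCE1-AS1 and MAGI2-AS3 without replicate 1, the library with 30.7% ribosomal RNA, or without replicate 2, and MAGI2-AS3 and MBNL1-AS1 without replicate 3. That is 1.08% of the RNAs in each fit, beside 4.38%, 4.66% and 3.75% of all genes. With ribosomal RNA genes left out all 6 passed, and no difference changed direction in these fits.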

How the results depend on the processing

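At 24H, 0 antisense RNAs were called under every alternative run. At 48H the count of 0 became 1 with DESeq2 (CTBP1-AS, 0.541% beside 0.763% of all 29740 rows, not filtered by expression). It became 1 with at least 10 counts in every library (0.549%, beside 1.96%) and 1 with ribosomal RNA genes left out (0.541%, beside 1.8%). It became 7 without the fold threshold (3.78%, beside 10.4%), and 0 to 4 when a library was left out. The 4 arose without TMAO 48H replicate 3 (CTBP1-AS, DOCK9-AS2, HNRNPU-AS1 and HOXA-AS2), where 2.16% of the antisense RNAs were called beside 2.27% of all genes. In that fit 10 passed at any fold change (5.41%, beside 10.7% of all genes) against 7 with all libraries (3.78%, beside 10.4%). Without TMAO 48H replicate 2, 2 passed, OIP5-AS1 and PAX8-AS1 (1.08%, beside 4.71%). Without CTRL replicate 1, 2 or 3, 4, 4 and 3 passed (2.16%, 2.16% and 1.62%, beside 6.38%, 5.25% and 8.85%). Between 48H and 24H the 2 calls became 6 without the fold threshold (3.24%, beside 7.52% of all genes). They became 1 to 3 with a library left out (0.541% to 1.62%, beside 1.3% to 1.72%). Without any 1 of the 24H replicates, 2 passed at any fold change (1.08%, beside 3.75% to 4.66%). Fitting only the groups compared, 4 passed at any fold change at 48H (2.16%, beside 6.78% of all genes). The cause of these shifts was not tested.

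OIP5-AS1 and PAX8-AS1 at 48H, and MAGI2-AS3 between 48H and 24H, passed in all 7 alternatives and all 6 fits with a library left out. HHIP-AS1 at 48H passed in 4 of 7 and 1 of 6, and CACTIN-AS1 between 48H and 24H in 5 of 7 and 0 of 6. The median log2 difference of the antisense RNAs ranged from -0.026 to 0.010 at 24H, from -0.11 to -0.019 at 48H and from -0.079 to -0.021 between 48H and 24H with a library left out. With a library left out, log2 differences from CTRL at 48H that did not pass changed sign for 5 named RNAs: they ran from -0.015 (without CTRL replicate 2) to 0.030 for THAP9-AS1, with -0.0042 without TMAO 48H replicate 2, from -0.047 (without CTRL replicate 2) to 0.24 for CDKN2B-AS1, with -0.0034 without TMAO 48H replicate 3, from -0.0031 (without TMAO 48H replicate 1) upward for FAM211A-AS1, and, lowest without TMAO 48H replicate 3, from -0.38 to 0.69 for VIM-AS1 and from -0.0034 to 0.36 for MCM3AP-AS1.

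For libraries with the same replicate number, correlations of their deviations from the group mean ran from -0.12 to 0.091 over 9 pairs. Over 18 pairs with different numbers they ran from -0.10 to 0.16. These ranges overlap and cannot decide whether the number pairs the samples. With the replicate block 3 antisense RNAs passed at any fold change at 48H (MAGI2-AS3, OIP5-AS1 and PAX8-AS1), which is 1.62% beside 6.4% of all genes. In that fit 0 were called, beside 1.45%. Between 48H and 24H 2 passed (MAGI2-AS3 and PLCE1-AS1), which is 1.08% beside 4.95%, and 1 was called, 0.541% beside 1.44%.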

Other observations

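Other long noncoding RNAs in the same table also gave no passing change at 24H, when 0 of the rows named LINC, SNHG or as microRNA host genes passed in edgeR; at an unadjusted p under 0.05, 4 of 92 LINC rows were higher and 2 lower, 2 of 15 SNHG rows lower and 1 of 12 host genes lower, beside 2.77% of all genes higher and 4.47% lower. At 48H, LINC00346 and LINC00657 rose and LINC01123 fell among 92 LINC rows tested, beside 5.13% of all genes that passed higher and 5.29% that passed lower. LINC00657, also known as NORAD, which binds Pumilio proteins, had 15268, 14804 and 14623 counts in CTRL and 17442, 18518 and 17511 at 48H, with a log2 difference of 0.26 (SE 0.042, adjusted p = 0.00224 in edgeR). All of its 48H libraries lay above CTRL.

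The host gene MIR100HG was the only row of these classes called at 48H, with 344, 321 and 387 counts in CTRL, 378, 327 and 333 at 24H and 193, 247 and 287 at 48H. It fell by 0.53 against CTRL (SE 0.13, adjusted p = 0.0194 in edgeR), and all 48H libraries were the lowest. Of all genes, 0.916% were called lower at 48H. MIR100HG was also called against 24H, 0.51 lower (adjusted p = 0.028 in edgeR), beside 0.841% of all genes called lower there. Of 15 snoRNA host genes (SNHG) tested, SNHG1, SNHG3 and SNHG16 fell at 48H, by 0.23, 0.29 and 0.25, beside 5.29% of all genes that passed lower, and the difference between these shares was not tested. SNHG6 went the other way, with 418, 463 and 513 counts in CTRL, 412, 434 and 417 at 24H and 582, 555 and 468 at 48H. It differed by 0.20 from CTRL (adjusted p = 0.186 in edgeR) and was 0.35 higher at 48H than at 24H (adjusted p = 0.0394). SNHG1 also passed between 48H and 24H, 0.29 lower at 48H (adjusted p = 0.0070 in edgeR). In that comparison 3.77% of all genes passed higher and 3.76% lower. Of the 501 antisense rows under the mean count of 20, 73 could be tested, and BRE-AS1 was called between 48H and 24H, beside 1.7% of all genes. It had 9.73, 6.97 and 9.07 counts in CTRL, 7.84, 5.44 and 6.27 at 24H and 17.5, 14.97 and 21.9 at 48H. Only the 48H libraries lay above 10 counts, so BRE-AS1 may have met the expression filter through them alone. Its call is therefore not read as a change.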
